A study of Mus musculus with 72 samples.

Results

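The genes described here encode the cardiac myosins and the proteins that work with them on the thick filament: Myh6, Myh7, Myh7b, Myl2, Myl3, Myl4, Myl7, Mylk3, Mybpc3 and Mybphl. These 10 genes were chosen by name from the 53715 Ensembl gene identifiers that the count files hold, and each matched 1 identifier and passed the filter on low counts in both heart tissues. The thick filament of heart muscle is built of myosin hexamers, each with a pair of heavy chains that hydrolyse ATP and pull on actin, and with essential and regulatory light chains that stiffen and tune the lever arm. Atrial and ventricular cardiomyocytes use different light chains, and in the adult mouse the fast alpha heavy chain Myh6 prevails in both chambers while the slower beta chain Myh7 is best known from fetal and pressure-loaded hearts. Cardiac myosin light chain kinase, encoded by Mylk3, phosphorylates the regulatory light chain, and myosin-binding protein C holds heads near the filament and sets how fast bridges form.

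The study asked what the loss of Gnb5, the G-protein beta subunit that pairs with R7-type RGS proteins and speeds the end of inhibitory signalling, does to the transcriptome of the heart. Libraries were made from whole atria (left and right together, so that nodal tissue is part of them) and from ventricles of 18 male mice aged 18 weeks, 6 with both copies of Gnb5 (Gnb5+/+), 6 with 1 copy (Gnb5+/-) and 6 with none (Gnb5-/-). All mice shared the C57BL/6J background, and the knockout allele lacks exon 3 in the germline, so every cell of the animal carried it from conception. Atria and ventricles came from the same mice by the mouse numbers in the labels, which gave 6 groups of 6 libraries. Levels below are CPM, counts scaled to a common library size with TMM factors, which can be compared between libraries for 1 gene, and n = 6 in each group unless another number is given. Tests are edgeR's quasi-likelihood tests with Benjamini-Hochberg adjustment over all genes tested, and a gene was called at an adjusted p below 0.05.

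The 36 heart libraries held 29355469 to 46118252 counts on genes. Gnb5 itself fell stepwise in atria, from 24.6 ± 2.21 CPM (SD) in Gnb5+/+ through 12.8 ± 1.64 in Gnb5+/- to 1.52 ± 0.342 in Gnb5-/- mice, and in ventricles from 22.2 ± 1.76 through 11.5 ± 1.60 to 1.13 ± 0.401. Chamber labels held up against markers that are no members. The 3 ventricular markers (Irx4, Hey2 and Pln) summed to 5372 to 8089 CPM in ventricles and 1165 to 2382 in atria, nearly all of it Pln, which both chambers use. Irx4 alone ran from 30.9 to 54.8 CPM in ventricles and from 0 to 3.21 in atria. Hey2 ran from 3.86 to 7.02 and from 1.31 to 4.48, with overlap. The 5 atrial markers (Nppa, Sln, Bmp10, Kcnj3 and Nr2f2) summed to 13080 to 24560 CPM in atria and 158 to 295 in ventricles. Among the ventricular libraries, that of Gnb5+/- replicate 4 stood apart. Its genes with more than 6000 exon bases lay low against those with under 1000 bases, by a difference in median log2 deviation of -1.27, whereas the other 35 heart libraries lay between -0.265 and 0.22, and Myh6 with its long transcript was lowest there of all ventricular libraries while Myl2 and Myl3 were highest. The atrial libraries of Gnb5+/+ replicates 2 and 4 held the most Myl2, and the ventricular library of Gnb5+/- replicate 3 the least of the atrial light chains, as given with those genes below. Because whole tissue was sequenced, fewer cells of a type and less RNA per cell cannot be told apart.

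Between genotypes no member was called in either chamber. In Gnb5-/- against Gnb5+/+ atria 0 of the 10 members passed the adjusted threshold, beside 41 of 16181 genes (0.253%), and in Gnb5+/- atria 0 of 10, beside 2 genes (0.0124%). In ventricles 0 of 10 passed in Gnb5-/- mice, beside 28 of 14866 genes (0.188%), and 0 of 10 in Gnb5+/- mice, beside 3 genes (0.0202%). At an unadjusted p below 0.05 edgeR gave 1 member in Gnb5-/- atria (Myh7), 2 in Gnb5+/- atria (Myh7 and Myl3), 1 in Gnb5-/- ventricles (Mylk3) and 0 in Gnb5+/- ventricles, where 1318 and 1169 of the 16181 genes tested in atria and 711 and 720 of the 14866 tested in ventricles were below it. DESeq2 called Myh7 in both atrial comparisons, beside 110 genes in Gnb5-/- and 7 in Gnb5+/- atria of 16153. It called no member in the ventricles, beside 63 and 3 of 14862 genes. The median log2 fold change of the members was -0.16, -0.12, 0.004 and 0.02 in these 4 comparisons, beside medians over all genes between -0.006 and 0. No member had groups that did not overlap in any of them, where 0.63%, 0.204%, 0.545% and 0.155% of all genes had. Both mutant genotypes were set against the same 6 Gnb5+/+ libraries of each chamber.

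**Figure D1:**
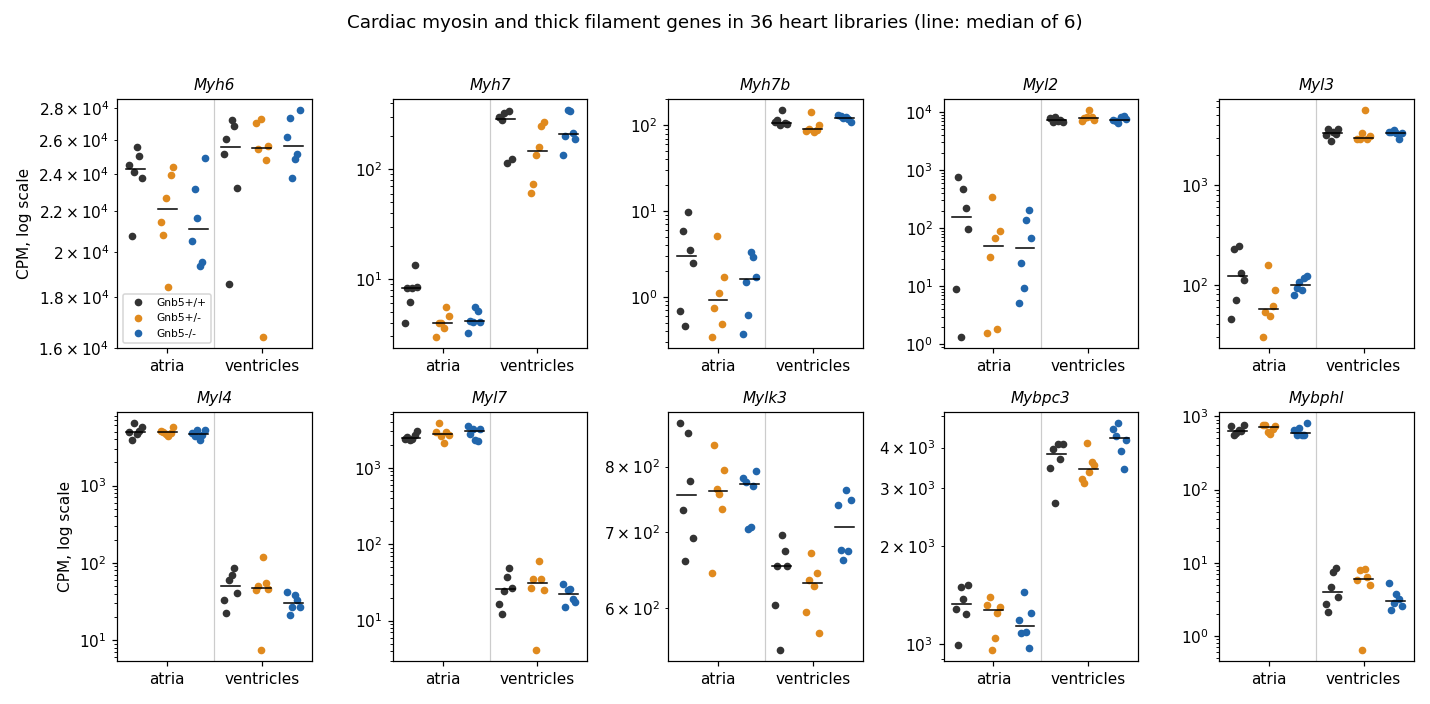
Level of each of the 10 genes (TMM-normalised CPM, log axis) in the 6 atrial and 6 ventricular libraries of each genotype; each point is a mouse and the line marks the group's median. Chambers lie far apart for Myh7, Myh7b, Myl2, Myl3, Myl4, Myl7 and Mybphl, whereas genotypes of a chamber overlap for every gene.

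Between chambers, by contrast, 9 of 10 members were called in each genotype. In Gnb5+/+ mice 4 were higher and 5 lower in atria than in ventricles, beside 8645 of 16507 genes called (52.4%), in Gnb5+/- mice 4 were higher and 5 lower, beside 57.7% of genes, and in Gnb5-/- mice 3 were higher and 6 lower, beside 56.0%. The groups did not overlap for 8 of the 10 members in each genotype, with the same 3 higher in atria (Myl4, Myl7 and Mybphl) and the same 5 lower (Myh7, Myh7b, Myl2, Myl3 and Mybpc3), whereas 28.5%, 34.1% and 37.7% of all genes tested were separated in this way. Among the members the log2 fold changes of atria over ventricles ran from -4.93 to 7.07 in Gnb5+/+, -6.51 to 6.92 in Gnb5+/- and -6.63 to 7.56 in Gnb5-/- mice. Mitochondrial genes took 26.5% to 44.8% of the counts in ventricles and 14.1% to 34.5% in atria, and the TMM factors were 0.740 to 1.02 and 1.05 to 1.36. With library totals alone, an alternative added after the data were seen, the median gene of the same contrasts moved to 0.457, 0.647 and 0.568 and the called genes became 9555 higher and 1543 lower in Gnb5+/+ atria in place of 4268 and 4377, with 11272 and 1279 in place of 4774 and 4757 in Gnb5+/- and 10659 and 1492 in place of 4639 and 4613 in Gnb5-/- mice. The 8 separated members kept their directions there, and Myh6, discussed next, did not.

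Of the heavy chains, Myh6 (ENSMUSG00000040752; GRCm38 chr14:54941921-54966927, minus strand) encodes alpha-myosin heavy chain, the main motor of the adult mouse heart, and alone took 2.17% to 2.98% of the counts on genes in atrial and 1.36% to 2.42% in ventricular libraries. In atria its level ran from 20784 to 25557 CPM in Gnb5+/+ (median 24293), from 18433 to 24399 in Gnb5+/- (median 22100) and from 19346 to 24886 in Gnb5-/- mice (median 21088). In ventricles it ran from 18580 to 27230 CPM (median 25590), from 16409 to 27304 (median 25528) and from 23786 to 27851 (median 25650) in the same order of genotypes. All 6 groups overlapped, and the lowest value of all was that of the Gnb5+/- replicate 4 ventricles. Myh6 differed from Gnb5+/+ by -0.15 (log2, SE 0.08, edgeR adjusted p = 0.71) in Gnb5-/- atria and by 0.08 (SE 0.12, adjusted p = 0.9998) in Gnb5-/- ventricles, and the 95% interval of the atrial difference ran from -0.31 to 0.02. Atria over ventricles gave -0.03 in Gnb5+/+ (edgeR adjusted p = 0.82), -0.15 in Gnb5+/- (0.22) and -0.27 in Gnb5-/- mice (0.031). That last call depended on the settings. DESeq2 called Myh6 there too, and the call was kept with the mouse as a block. It was lost without a filter on low counts (-0.24, edgeR adjusted p = 0.16) and with at least 10 counts in every library (-0.21, 0.091). Leaving out any of the Gnb5-/- replicates 1, 2, 4 or 5 lost it as well (adjusted p from 0.053 to 0.078). With library totals alone the sign turned to 0.43, 0.48 and 0.29 in the 3 genotypes, each called.

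Myh7 (ENSMUSG00000053093; chr14:54970684-54994626, minus strand) lies next to Myh6 on the chromosome and encodes beta-myosin heavy chain, the slower ATPase. Its atrial level was low, at 3.95 to 13.4 CPM in Gnb5+/+ (median 8.29), 2.97 to 5.53 in Gnb5+/- (median 3.97) and 3.23 to 5.56 in Gnb5-/- mice (median 4.13). The Gnb5+/+ libraries 2 to 6 lay at 8.29, 6.15, 8.29, 13.4 and 8.52 CPM, above all 12 libraries of the other genotypes, and replicate 1 at 3.95 CPM lay inside their range, so that the groups overlapped through 1 library. The log2 fold change against Gnb5+/+ was -0.88 (SE 0.22, unadjusted p = 0.00061) in Gnb5-/- and -0.98 (SE 0.22, unadjusted p = 0.00023) in Gnb5+/- atria, a level 1.84-fold and 1.97-fold lower, and 6 of 6 mice of each genotype lay below the Gnb5+/+ mean. Benjamini-Hochberg adjustment over 16181 genes gave edgeR adjusted p = 0.137 and adjusted p = 0.53, so neither passed, whereas DESeq2 gave -0.88 with adjusted p = 0.012 and -0.98 with adjusted p = 0.0173. A two-sided exact permutation test over all divisions of the 12 libraries into 6 and 6 gave p = 0.0152 in Gnb5-/- and p = 0.0108 in Gnb5+/- atria, where 0.00216 is the smallest value possible and where 3 of 40 such tests over members and comparisons were below 0.05.

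A single library moved this result across the threshold. Without Gnb5+/+ replicate 1 Myh7 passed in edgeR in both comparisons, with -1.02 (adjusted p = 0.0118) in Gnb5-/- and -1.12 (adjusted p = 0.0277) in Gnb5+/- atria. Without replicate 5, the highest, the values were -0.68 and -0.78, and neither passed. Mitochondrial genes took 23.4% to 34.5% of the counts in Gnb5+/+ atria, 17.5% to 28.5% in Gnb5+/- and 14.1% to 23.9% in Gnb5-/- atria, and their part in the Myh7 difference was not tested. Myh7 is also a gene of the ventricle, and the Gnb5+/+ atria that held the most Myl2 were replicates 2 and 4. Without these libraries Myh7 stood at -0.86 (adjusted p = 0.46) and -0.95 (adjusted p = 0.90). With the mean log2 level of Myl2 and Myl3 as a covariate it stood at -0.80 (adjusted p = 0.15) and -0.79 (adjusted p = 0.72). In the kept Gnb5+/+ replicates 1, 3, 5 and 6, ventricular RNA in proportion to Myl2 would carry 8.43%, 0.863%, 76.1% and 20.7% of the Myh7. The part of ventricular RNA in the Myh7 difference was not tested. Over the 18 atrial libraries Myh7 rose with Myl2 (Pearson r = 0.485, permutation p = 0.041, adjusted over 2 relations 0.041, rho = 0.474, p = 0.0487) and with Myl3 (r = 0.606, permutation p = 0.0076, adjusted 0.0152, rho = 0.564, p = 0.0165), and r was 0.523 and 0.467 without the 2 libraries farthest from the median of the light chain. Within genotypes the relation with Myl2 was uneven, at r = 0.648 in Gnb5+/+ (exact permutation p = 0.185), 0.004 in Gnb5+/- (0.999) and 0.89 in Gnb5-/- mice (0.0208), and that with Myl3 was 0.681 (0.142), 0.451 (0.358) and 0.289 (0.572). After the mean of each genotype was taken off, genes whose log2 level went most like Myh7 over the 18 atria among 16181 genes included Tmem52 (r = 0.806), Bex1 (0.746), Itih4 (0.724) and Gm9924 (0.718), given as a description since these values share libraries and depth.

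In ventricles Myh7 was 30.5-fold to 54.4-fold higher than in atria of the same genotype and varied more between mice than between genotypes. It spanned 115 to 341 CPM in Gnb5+/+ (median 287), 60.5 to 269 in Gnb5+/- (median 147) and 134 to 345 in Gnb5-/- mice (median 208), a 5.70-fold range over the 18 libraries with full overlap of the groups. Against Gnb5+/+ the log2 fold change was -0.05 (SE 0.35, 95% interval -0.73 to 0.63) in Gnb5-/- and -0.64 (SE 0.35, edgeR adjusted p = 0.96) in Gnb5+/- ventricles. The difference of the Gnb5-/- effect between chambers was -0.84 (SE 0.44, unadjusted p = 0.067, edgeR adjusted p = 0.9999), so the chambers were not shown to differ. Per kilobase of the longest coding transcript, Myh7 made up 0.0333% ± 0.0126 (SD) of Myh6 and Myh7 together in Gnb5+/+ atria, 0.0183% ± 0.00297 in Gnb5+/- atria and 0.0202% ± 0.00539 in Gnb5-/- atria, against 1.00% ± 0.472, 0.653% ± 0.366 and 0.908% ± 0.373 in the ventricles of the same genotypes. The highest share in any library was 1.68%, in Gnb5+/+ ventricles.

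**Figure D2:**
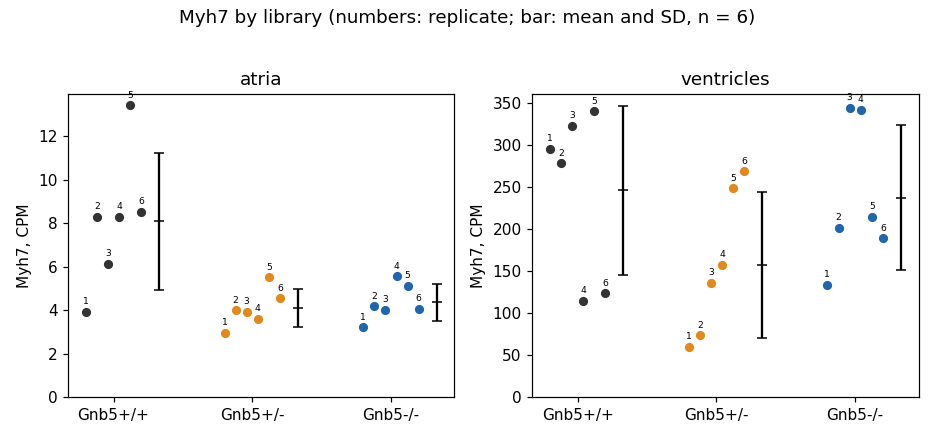
Myh7 level (TMM-normalised CPM) in atria and in ventricles of the 3 genotypes; each point is a mouse, labelled with its replicate number, and the bars give mean and SD of 6. In atria 5 of the 6 Gnb5+/+ libraries lie above all 12 Gnb5+/- and Gnb5-/- libraries and replicate 1 (3.95 CPM) lies among them, while the ventricular groups overlap throughout.

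How far reads can tell these neighbours apart bears on so small a Myh7 share. The coding sequences of Myh7 and Myh6 are 91.7% identical over 5802 aligned bases, with a longest identical run of 245 bases, and 8.54% of the 5681 windows of read length along the Myh7 coding sequence occur unchanged in Myh6, while 24.6% come within 2 mismatches of it. Reads that align to several places stood outside the gene counts in the files. Atrial Myh7 rested on 131 to 515 counts per library beside 691572 to 1248018 counts of Myh6, and the part of the former that came from Myh6 transcripts was not tested. A 60-base stretch of an early exon where the genes do not differ (Myh7 exon 5, chr14:54992312-54992371, and Myh6 exon 4, chr14:54963968-54964027, both minus strand) and the stretch where they differ most (Myh7 exon 27, chr14:54980352-54980411, and Myh6 exon 25, chr14:54952277-54952336, both minus strand, with 24 differing bases in capitals) show the contrast, read from the GENCODE transcripts of GRCm38:
Myh7 and Myh6, most alike: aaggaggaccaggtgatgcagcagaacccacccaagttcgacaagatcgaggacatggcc
Myh7, least alike: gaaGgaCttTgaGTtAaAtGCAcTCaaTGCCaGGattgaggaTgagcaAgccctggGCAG
Myh6, least alike: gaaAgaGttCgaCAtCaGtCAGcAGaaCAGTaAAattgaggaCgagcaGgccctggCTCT

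Myh7 also shares 484 exon bases with the antisense transcript Mhrt and 523 with Gm31251. The kit kept strand, but whether the counting used it is not given in the sources used here, so reads of those bases cannot be assigned with certainty. Mhrt itself differed by -0.12 (SE 0.12) in Gnb5-/- and -0.15 (SE 0.13) in Gnb5+/- atria on the log2 scale, with edgeR adjusted p of 0.87 and 0.84.

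Myh7b (ENSMUSG00000074652; chr2:155611212-155634307, plus strand) encodes a slow tonic heavy chain that is expressed at low level in heart and some other tissues. Atria held 0.455 to 9.77 CPM in Gnb5+/+ (median 3.01), 0.340 to 5.14 in Gnb5+/- (median 0.918) and 0.372 to 3.34 in Gnb5-/- mice (median 1.59), and ventricles 101 to 150 (median 107), 83.2 to 143 (median 89.4) and 110 to 131 CPM (median 123). Chambers did not overlap, and genotypes did. Atria over ventricles gave log2 fold changes of -4.93 (SE 0.52), -5.99 (SE 0.56) and -6.13 (SE 0.55) in Gnb5+/+, Gnb5+/- and Gnb5-/- mice, with edgeR adjusted p of 4.4e-10, 1.8e-11 and 8.9e-12. The atrial difference between Gnb5-/- and Gnb5+/+ mice was -1.11 (SE 0.70, edgeR adjusted p = 0.76) and became -0.02 without the 2 Gnb5+/+ libraries rich in Myl2. These also held the most atrial Myh7b, so that drop followed from the choice of libraries.

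Each of these heavy chain genes carries a microRNA in an intron, and the 3 mature sequences are shown because these hosts are the members measured and the microRNAs share most of the seed (bases 2 to 8, in capitals). miR-208a-3p lies in Myh6 (chr14:54949072-54949093, minus strand), miR-208b-3p in Myh7 (chr14:54975710-54975731, minus strand) and miR-499-5p in Myh7b (chr2:155622893-155622913, plus strand), with sequences of RefSeq on GRCm38.p6:
miR-208a-3p: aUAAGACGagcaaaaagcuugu
miR-208b-3p: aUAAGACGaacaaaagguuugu
miR-499-5p: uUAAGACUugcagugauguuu
The first and second share the whole seed and differ at 3 mature positions, and the third differs from both at 1 seed position. The libraries were not made for small RNA, and the hairpin genes had few counts, 1 to 68 per heart library for Mir208a, at most 1 in 3 libraries for Mir208b and 0 in all for Mir499, so no microRNA level is given.

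The 4 light chains fell into a ventricular and an atrial pair. Myl2 (ENSMUSG00000013936; chr5:122100951-122113472, plus strand) encodes the ventricular regulatory light chain and Myl3 (ENSMUSG00000059741; chr9:110741861-110769798, plus strand, 35.4 Mb from Gnb5) the ventricular essential light chain. Ventricles held 6729 to 8190 CPM of Myl2 in Gnb5+/+ (median 7208), 6925 to 10697 in Gnb5+/- (median 8001) and 6536 to 8474 in Gnb5-/- mice (median 7378). Their Myl3 ran from 2798 to 3668 CPM (median 3339), from 2910 to 5629 (median 2999) and from 2888 to 3548 (median 3350). Genotypes overlapped for both, and the highest value of each was that of the Gnb5+/- replicate 4 library. Differences from Gnb5+/+ ventricles were 0.02 (SE 0.10) for Myl2 and -0.01 (SE 0.13) for Myl3 in Gnb5-/- mice, with 95% intervals of -0.18 to 0.22 and -0.28 to 0.25. In Gnb5+/- ventricles they were 0.16 (SE 0.10) and 0.06 (SE 0.13), and without replicate 4 they were 0.07 and -0.13.

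In atria the same genes varied by library far more than by genotype. Myl2 ran from 1.34 to 748 CPM in Gnb5+/+ (median 158), from 1.56 to 346 in Gnb5+/- (median 50.0) and from 5.19 to 206 in Gnb5-/- mice (median 46.2), and Myl3 from 45.0 to 245 (median 122), from 30.0 to 158 (median 57.1) and from 79.4 to 122 (median 99.4). The groups overlapped, with the highest values in Gnb5+/+ replicates 2 and 4. The fitted differences from Gnb5+/+ were large in Myl2, -1.77 (SE 1.20) in Gnb5-/- and -1.53 (SE 1.20) in Gnb5+/- atria, with edgeR adjusted p of 0.79 and 0.82. Without replicates 2 and 4, picked by their own Myl2, they became -0.10 and 0.15. Myl3 gave -0.46 (SE 0.37, edgeR adjusted p = 0.83) and -0.93 (SE 0.37, unadjusted p = 0.022, adjusted p = 0.65), and 0.18 and -0.29 without those libraries. Both are Gnb5+/+ and held the most Myl2 and Myl3, so leaving them out lowered the Gnb5+/+ level of both genes by the choice itself. The smaller differences are no test of genotype.

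Myl4 (ENSMUSG00000061086; chr11:104550663-104595753, plus strand), the atrial essential light chain, and Myl7 (ENSMUSG00000020469; chr11:5896637-5898782, minus strand), the atrial regulatory light chain, took the opposite pattern. Atria held 3841 to 6360 CPM of Myl4 in Gnb5+/+ (median 4944), 4378 to 5745 in Gnb5+/- (median 4906) and 3866 to 5225 in Gnb5-/- mice (median 4614). Their Myl7 ran from 2330 to 2980 (median 2473), from 2129 to 3791 (median 2783) and from 2240 to 3533 CPM (median 2976). Genotypes overlapped throughout, with Gnb5-/- differences of -0.12 (SE 0.10) for Myl4 and 0.17 (SE 0.13) for Myl7, and edgeR adjusted p of 0.84 and 0.80. In ventricles Myl4 was at 22.5 to 84.9 CPM in Gnb5+/+ (median 50.3), 7.42 to 118 in Gnb5+/- (median 47.9) and 21.4 to 41.6 in Gnb5-/- mice (median 30.3), and Myl7 at 12.1 to 49.3 (median 25.6), 4.11 to 60.7 (median 30.6) and 15.1 to 30.2 (median 22.1). The extremes of both genes were Gnb5+/- libraries, replicate 3 the lowest and replicate 4 the highest. The largest member difference between Gnb5-/- and Gnb5+/+ ventricles was that of Myl4, at -0.72 (SE 0.40, unadjusted p = 0.083, edgeR adjusted p = 0.9998). Some other atrial genes were lower too, Sln at -0.83 (SE 0.46), Mybphl at -0.54 (SE 0.40) and Myl7 at -0.32 (SE 0.39). The atrial marker Nppa went the other way, at 0.58 (SE 0.24, edgeR unadjusted p = 0.023, adjusted p = 0.89). The median of the 4 atrial markers tested there was -0.03, and none of these genes was called. With the log2 level of Sln as a covariate, an alternative added after the data were seen, Myl4 stood at -0.09. Sln was itself among the lower genes there, and the part of atrial RNA in the Myl4 difference was not tested.

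Set against each other, the chambers differed in light chains as follows. Atria over ventricles gave Myl2 log2 fold changes of -4.83 (SE 1.03), -6.51 (SE 1.12) and -6.63 (SE 1.12) in Gnb5+/+, Gnb5+/- and Gnb5-/- mice, and Myl3 changes of -4.59 (SE 0.34), -5.57 (SE 0.36) and -5.04 (SE 0.35). Myl4 was higher in atria by 6.62 (SE 0.39), 6.54 (SE 0.39) and 7.21 (SE 0.40), about 98-fold in Gnb5+/+ mice, and Myl7 by 6.53 (SE 0.39), 6.51 (SE 0.39) and 7.02 (SE 0.40), about 92-fold. The edgeR adjusted p was 0.00016 for Myl2 in Gnb5+/+ mice and smaller in the other 11 of these tests. DESeq2 gave no adjusted p for Myl2 or Myh7b in any genotype and called 7 members in each, beside 8729, 9594 and 9341 of 16495 genes. Per kilobase, Myl2 made up 5.92% ± 6.69, 2.19% ± 3.11 and 1.98% ± 2.31 of the regulatory pair Myl2 and Myl7 in atria of the 3 genotypes and 99.4% ± 0.283, 99.5% ± 0.260 and 99.6% ± 0.133 in ventricles. In the essential pair Myl3 made up 2.87% ± 2.03, 1.47% ± 0.941 and 2.14% ± 0.297 of Myl3 and Myl4 in atria and 98.5% ± 0.749, 98.6% ± 0.639 and 99.1% ± 0.240 in ventricles. The atrial shares depend on the length taken. With all annotated exons joined they were 2.89%, 1.03% and 0.922% for Myl2 and 6.17%, 3.23% and 4.70% for Myl3.

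**Figure D3:**
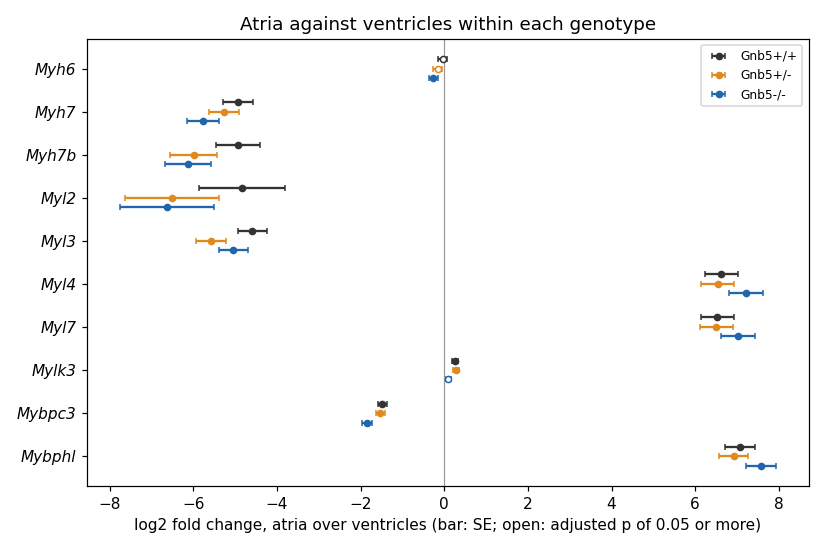
Log2 fold change of atria over ventricles for the 10 genes in each genotype, with bars of 1 SE from edgeR; open symbols mark adjusted p of 0.05 or more. Mybphl, Myl4 and Myl7 lie above 6.5 and Myh7, Myh7b, Myl2 and Myl3 below -4.5 in every genotype, with Myh6 and Mylk3 close to 0.

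Ventricular carry-over in the atrial libraries was examined through Myl2 and Myl3, each as a percent of the ventricular level of the same mouse. For Myl2 the atrial level was 0.0164% to 10.97% of the ventricular (median 0.766% of 18 mice), with medians of 2.21%, 0.518% and 0.627% in Gnb5+/+, Gnb5+/- and Gnb5-/- mice. Values above 5% were found in Gnb5+/+ replicates 2 (10.97%) and 4 (6.70%). For Myl3 the range was narrower, 0.858% to 7.22% (median 2.81%). The difference of Gnb5-/- from Gnb5+/+ mice in log2 ratio was -0.89 for Myl2 (two-sided exact permutation p = 0.61) and -0.23 for Myl3 (p = 0.56). Irx4, a ventricular transcription factor, ran from 0 to 7.92% (median 1.06%), with 0 counts in 5 of the 18 atrial libraries, Myh7b from 0.284% to 6.54% and Myh7 from 1.17% to 7.22%. Pln and Mybpc3, which both chambers use, ran from 16.5% to 43.2% and from 23.3% to 55.4%.

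These ventricular genes went together over the atrial libraries. With genotype means removed, the genes most like Myl2 among 16181 were Irx4 (r = 0.975), Myh7b (0.948), Lrtm1 (0.919), Acsm5 (0.911) and Ush1c (0.892), while Myl3 came at rank 22 (0.771) and Myh7 at rank 502 (0.505), again as a description over 18 libraries. Myl3 and Myh7 kept a level that did not follow Myl2 down. In the 6 atrial libraries with Myl2 below 10 CPM (1.34 to 9.48), Myl3 was at 30.0 to 106 CPM, Myh7 at 2.97 to 6.15 and Myh7b at 0.340 to 0.687. Had each atrium held ventricular RNA in the proportion that its Myl2 gives, this RNA would have carried a median of 33.3% of the atrial Myl3, 24.3% of the Myh7 and 53.6% of the Myh7b, and the measured level was above that amount in 17, 14 and 15 of 18 libraries. In Gnb5+/+ replicate 2 the amount so computed exceeded the measured level of all 3 genes, reaching 175% for Myl3, 369% for Myh7 and 216% for Myh7b. Whether atrial Myl2 came from ventricular tissue at the dissection border or from cells of the atrium was not tested.

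In the other direction the ventricular libraries held 0.158% to 2.69% of the atrial level of Myl4, 0.161% to 2.85% of Myl7 and 0.105% to 1.46% of Mybphl, beside 0.0421% to 1.44% of Sln. The ventricles of Gnb5+/- replicate 3 were lowest for each of these 4, but not for the atrial markers Nppa and Bmp10. Nppa ran from 0.380% to 1.78%, with 0.817% in that mouse and its lowest value in Gnb5+/- replicate 2. Bmp10 ran from 0 to 0.304%, with 0.00725% in that mouse. Over the 18 ventricular libraries Myl7 went with Myl4 (r = 0.953), Mybphl (0.944) and Sln (0.944) on a log2(CPM + 1) scale.

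**Figure D4:**
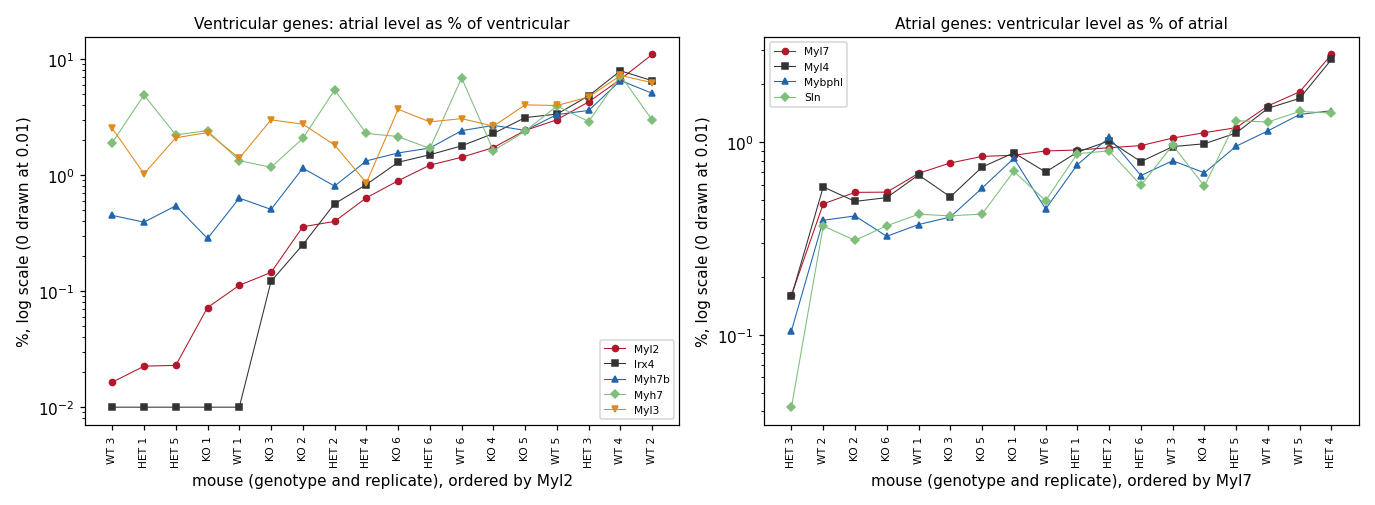
Level in the other chamber as a percent of the level in the gene's own chamber of the same mouse (log axis), for ventricular genes read in atria and atrial genes read in ventricles; each point is 1 of 18 mice and a level of 0 is drawn at 0.01%. Myl2 spans 0.0164% to 10.97% with Gnb5+/+ replicates 2 and 4 at the top, and Myl3 and Myh7 stay above 0.8% in all mice.

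Mylk3 (ENSMUSG00000031698; chr8:85324303-85386345, minus strand) encodes the cardiac myosin light chain kinase and had the smallest coefficient of variation of the members over the 18 libraries of a chamber, 8.25% in atria and 8.74% in ventricles. Atria held 660 to 874 CPM in Gnb5+/+ (median 755), 645 to 835 in Gnb5+/- (median 761) and 705 to 793 in Gnb5-/- mice (median 772), and ventricles 550 to 695 (median 653), 570 to 670 (median 631) and 661 to 763 (median 707). All groups of a chamber overlapped, and in Gnb5-/- ventricles 6 of 6 mice lay above the Gnb5+/+ mean. That difference was 0.15 (log2, SE 0.07), a level 1.11-fold higher, with unadjusted p = 0.048, exact permutation p = 0.0325 and edgeR adjusted p = 0.9998. Atria over ventricles gave 0.26 (SE 0.07, edgeR adjusted p = 0.0029) in Gnb5+/+, 0.28 (SE 0.07, 0.0016) in Gnb5+/- and 0.09 (SE 0.07, 0.32) in Gnb5-/- mice. The interaction of chamber and Gnb5-/- genotype was -0.17 (SE 0.10, unadjusted p = 0.10), so the loss of the call in Gnb5-/- mice was not shown to be a difference between genotypes, and with library totals alone Mylk3 was called in these mice too, at 0.65.

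Mybpc3 (ENSMUSG00000002100; chr2:91118144-91136516, plus strand) encodes cardiac myosin-binding protein C. Ventricles held 2698 to 4112 CPM in Gnb5+/+ (median 3818), 3107 to 4118 in Gnb5+/- (median 3444) and 3446 to 4744 in Gnb5-/- mice (median 4286), and atria 991 to 1522 (median 1329), 959 to 1399 (median 1273) and 973 to 1446 (median 1137). Genotypes overlapped in both chambers, while every ventricular library lay above every atrial one. Atria over ventricles gave -1.48 (SE 0.12), -1.53 (SE 0.12) and -1.85 (SE 0.12) in the 3 genotypes, 2.79-fold, 2.88-fold and 3.59-fold lower, with edgeR adjusted p of 3.4e-13, 1.2e-13 and 9.7e-16. The Gnb5-/- difference was -0.17 (SE 0.11) in atria and 0.20 (SE 0.11) in ventricles, and the interaction was -0.37 (SE 0.16, unadjusted p = 0.029, edgeR adjusted p = 0.9999).

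Mybphl (ENSMUSG00000068745; chr3:108364911-108380057, plus strand), the myosin-binding protein H-like gene of atrial and conduction cells, had the largest chamber difference of the members. Atria held 548 to 751 CPM in Gnb5+/+ (median 636), 568 to 758 in Gnb5+/- (median 703) and 548 to 797 in Gnb5-/- mice (median 598), and ventricles 2.15 to 8.62 (median 4.01), 0.645 to 8.26 (median 6.05) and 2.30 to 5.26 (median 3.01). Chambers did not overlap, and genotypes did. The log2 fold change of atria over ventricles was 7.07 (SE 0.35), 6.92 (SE 0.35) and 7.56 (SE 0.36), with edgeR adjusted p of 1.2e-18, 1.4e-18 and 2.8e-19. Between genotypes Mybphl differed in atria by -0.04 (SE 0.10, edgeR adjusted p = 0.96) in Gnb5-/- and 0.08 (SE 0.10, 0.90) in Gnb5+/- mice. Per kilobase it exceeded Mybpc3 in atria, with 61.7% ± 3.35, 64.9% ± 1.53 and 63.7% ± 2.31 of the pair in the 3 genotypes, and fell to 0.435% ± 0.232, 0.548% ± 0.282 and 0.260% ± 0.0817 in ventricles.

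The difference of a genotype's effect between chambers passed for 0 of 10 members in Gnb5-/- mice, beside 2 of 16507 genes (0.0121%), and for 0 of 10 in Gnb5+/- mice, beside 0 genes (0.0%). At an unadjusted p below 0.05 edgeR gave 1 member in each, Mybpc3 as above and Myl3 at -0.98 (SE 0.42, edgeR adjusted p = 0.98) in Gnb5+/- mice, beside 504 and 811 of all genes. DESeq2 called 0 members in either, beside 9 and 0 of 16495 genes, and gave no adjusted p for Myl2 and Myh7b.

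Between genes, levels were compared per kilobase of the longest coding transcript. In Gnb5+/+ atria the order was Myl4 (5388 ± 939 CPM per kilobase, SD), Myl7 (4333 ± 419) and Myh6 (3919 ± 275), whose ranges overlapped in turn, then Mybphl (509 ± 65.9), Mybpc3 (316 ± 47.0), Myl2 (290 ± 334), Mylk3 (207 ± 23.5) and Myl3 (148 ± 87.6), the last 4 again overlapping, and far below Myh7 (1.30 ± 0.506) and Myh7b (0.614 ± 0.572). In Gnb5+/+ ventricles it was Myl2 (8253 ± 662), Myh6 (4009 ± 529) with Myl3 (3562 ± 347), Mybpc3 (881 ± 129), Mylk3 (173 ± 14.2), then Myl4 (54.8 ± 25.2), Myl7 (46.9 ± 23.1), Myh7 (39.5 ± 16.2) and Myh7b (18.5 ± 2.93) with overlap from each to the next, and last Mybphl (3.79 ± 2.07). The place of Myl4 depends on the transcript taken, since all its annotated exons joined are 4637 bases long and its longest coding transcript 943, and with the joined exons it fell to 1096 CPM per kilobase, below Myl7 and Myh6. In Gnb5-/- mice Myl4 stood at 4924 ± 553 in atria, in a range that overlapped that of Myl7, and Myl2 at 8380 ± 811 in ventricles. The place of Myl2 depends on the length too, since with joined exons it stood at 3821 ± 370 in Gnb5-/- ventricles beside Myh6 at 3845 ± 231, with overlapping ranges.

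Other proteins of the thick filament and M-band were read from a list of 13 genes (among them Ttn, Obsl1, Myom1, Myom2, Myom3, Unc45b, Smyd1, Trim54, Trim55, Trim63, Csrp3 and Tcap), and regulators of myosin phosphorylation from a list of 10 (Mylk, Mylk2, Mylk4, Dapk3, Camk2d, Prkaca, Ppp1cb, Ppp1r12a, Ppp1r12b and Ppp1r12c, of which 9 were tested in ventricles). Between genotypes 0 genes of either list were called in any of the 4 comparisons by edgeR or DESeq2. At an unadjusted p below 0.05 edgeR gave 2 thick filament partners in each comparison, Smyd1 (-0.19) and Myom3 (-0.40) in Gnb5-/- atria, Myom1 (-0.21) and Unc45b (-0.27) in Gnb5+/- atria, Myom2 (0.55) and Trim55 (0.18) in Gnb5-/- ventricles, and Unc45b (-0.28) and Trim55 (0.17) in Gnb5+/- ventricles, with adjusted p from 0.26 to 0.96, where 1318, 1169, 711 and 720 of all genes were below 0.05. It gave 1 phosphorylation gene, Ppp1cb (-0.25, adjusted p = 0.75) in Gnb5-/- ventricles, and none in the other 3 comparisons. The median log2 fold change of Gnb5-/- over Gnb5+/+ was -0.08 for the partners and -0.04 for the phosphorylation genes in atria, and -0.02 and -0.01 in ventricles.

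Between chambers 8, 8 and 7 of the 13 thick filament partners were called in Gnb5+/+, Gnb5+/- and Gnb5-/- mice, beside 52.4%, 57.7% and 56.0% of all genes, with 2, 2 and 1 higher in atria and 6 lower in each, and medians of -0.30, -0.31 and -0.21 beside 0.001, 0.02 and 0.02 over all genes. In all 3 genotypes 1 was higher and 5 were lower. The largest were Trim54 (-1.03, -1.21 and -1.17), a muscle RING-finger protein of microtubules and the sarcomere, Smyd1 (-0.89, -0.95 and -1.02), a methyltransferase that takes part in myosin assembly, and Myom1 (-0.75, -0.97 and -0.83), myomesin of the M-band. Of the phosphorylation genes 5, 7 and 5 of 10 were called beside the same shares of all genes, 1 higher in each, with medians of -0.22, -0.31 and -0.16. Mylk2, known as the skeletal muscle light chain kinase, was higher in atria by 2.68, 2.62 and 3.28, Mylk, the smooth muscle kinase, lower by -0.80, -0.79 and -0.79, and Prkaca, the catalytic subunit of protein kinase A, lower by -0.59, -0.63 and -0.77. Mylk2 was near the floor, with means of 0.741, 0.644 and 0.924 CPM in atria and 0.110, 0.102 and 0.0879 in ventricles. It was the listed gene not tested in ventricles, so it entered the chamber fit through its atrial level. In the library of the Gnb5+/- replicate 4 ventricles the partners summed to 10050 CPM, the lowest of its group (median 17540), whereas the ventricles of the other genotypes ran from 15060 to 18680.

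Markers of the cell types that such tissue holds were also compared between chambers, and their part in the member differences was not tested. Higher and lower count the markers called by edgeR, beside 52.4%, 57.7% and 56.0% of all genes called in Gnb5+/+, Gnb5+/- and Gnb5-/- mice. All 5 cardiomyocyte markers (Actc1, Tnnt2, Tnni3, Ryr2 and Atp2a2) were lower in atria in each genotype, with medians of -0.45, -0.76 and -0.63 and sums of 20280 to 26810 CPM in atria and 32490 to 38880 in ventricles. The 3 ventricular markers were lower in each, with medians of -1.89, -2.16 and -1.96, and the 5 atrial markers higher, with medians of 6.75, 6.88 and 6.37. All 4 fibroblast markers (Col1a1, Col1a2, Dcn and Pdgfra) were higher in atria, with medians of 0.77, 0.85 and 0.85 and sums of 1130 to 1588 CPM against 680 to 935 in ventricles. Of 4 endothelial markers (Pecam1, Cdh5, Kdr and Tie1) 1 was higher in each and 3, 2 and 2 lower, with sums of 520 to 695 and 623 to 905 CPM. Of 5 smooth muscle markers (Myh11, Acta2, Tagln, Cnn1 and Myl9) 2 were higher in each and 3, 3 and 2 lower, with sums of 197 to 651 and 159 to 409 CPM. Of 11 skeletal muscle genes (Myh1, Myh2, Myh4, Myl1, Mylpf, Acta1, Ckm, Tnnt3, Tnni2, Mybpc1 and Mybpc2), 8 were tested, with 3 higher in each and 4, 4 and 3 lower, and sums of 603 to 1336 CPM in atria against 1843 to 2908 in ventricles. In each genotype Myl1, Tnnt3 and Tnni2 were higher in atria while Acta1, Ckm and Mybpc2 were lower. These sums therefore give no amount of skeletal muscle. Between genotypes 0 genes of these 7 marker lists were called in any of the 4 comparisons by edgeR or DESeq2. At an unadjusted p below 0.05 the most of any list were 3 skeletal genes in Gnb5-/- ventricles, Tnni2 (-1.01), Tnnt3 (-0.62) and Mybpc2 (-0.40), beside 711 of all 14866 genes.

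The brain libraries of the same study served as tissue that should lack cardiac muscle. Cerebellum, hippocampus and cerebral cortex of the 6 Gnb5+/+ and 6 Gnb5-/- mice gave a median Myh6 of 0.0269, 0.0796 and 0.0726 CPM (n = 12 each, without scaling factors), against the 16409 CPM of its lowest heart library. Mybpc3 was the member with the highest brain level, at a median of 173 CPM in cerebellum (97.2 to 230). Myh7 had medians of 4.96 in hippocampus and 10.7 in cortex, similar in size to its atrial level, and Myh7b 10.4, 4.19 and 6.72 CPM in cerebellum, hippocampus and cortex, where its highest atrial library had 9.77. These brain values were set beside heart levels made with TMM factors and were not tested against them.

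**Figure D5:**
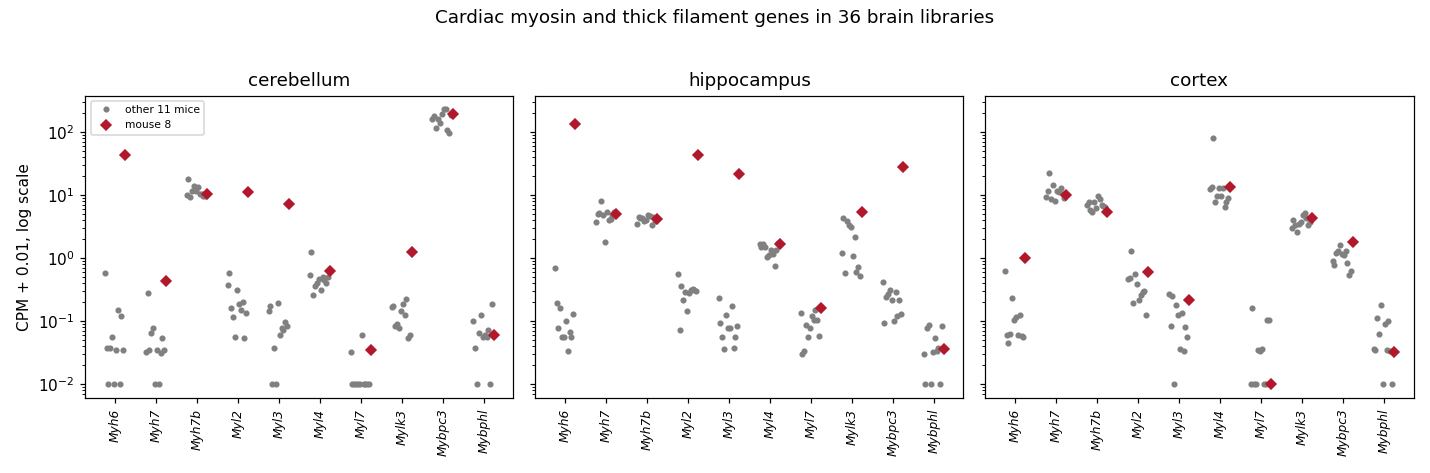
Level of the members (CPM, log axis) in the cerebellum, hippocampus and cortex libraries of 12 mice, with mouse 8 (Gnb5+/+ replicate 6) marked apart. Mybpc3 in cerebellum and Myh7, Myh7b and Myl4 in cortex lie above 1 CPM in all mice, while in hippocampus and cerebellum Myh6, Myl2 and Myl3 do so in mouse 8 alone. In cortex Myl2 reaches 1.27 CPM in 1 Gnb5-/- library.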

How the data were processed

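Libraries were made from total RNA of whole atria and ventricles of 18 mice with a stranded kit. The authors trimmed reads (cutadapt 1.8), aligned them to GRCm38 with STAR 2.5.3a and counted them per Ensembl gene with HTSeq 0.9.1, and they deposited raw counts without normalization. Between 2.85% and 6.74% of uniquely aligned reads lay outside genes and 0.830% to 1.16% were ambiguous, and these were left out of library sizes. Of 53715 identifiers, 53620 matched the GRCm38 annotation used for names and coordinates. The spread between mice, which includes counting error, sets the precision.

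Counts were fitted with edgeR 4.0.16 (R 4.3.3) using TMM, filterByExpr with minimum count 10, glmQLFit and glmQLFTest. Genotypes were compared in fits of the 18 libraries of a chamber with genotype alone, and chambers and interactions in a fit of all 36. Standard errors are the fold change over the square root of F. Exact permutation tests used log2 CPM with prior count 2, and correlations over 18 libraries 100000 permutations. Alternatives were DESeq2 1.42.0, RLE factors, other filters, robust fitting, scaling without the members, fits of 2 genotypes, replicate blocks, Myl2 and Myl3 as covariate and leaving out single libraries. Library totals, Myl2 or Sln alone as covariate, joined exons and fits without Myl2-rich libraries were added after the data were seen. Atria and ventricles of the same mouse deviated together from their group means (r 0.107 to 0.411, median 0.347, 17 of 18 best with their own), so the mouse numbers of the labels pair them and the mouse was also used as a block. No 2 libraries of a group differed by less than sampling noise (smallest chi-square per degree of freedom 11.1). In simulated counts with 200 changed genes, the comparison of Gnb5-/- with Gnb5+/+ atria found 150 with 5 false calls among 16181 genes. With 200 changed genes the chamber comparison in Gnb5+/+ mice found 161 with 7 false among 16507. The measured counts gave 8645 called genes of 16507 in that chamber comparison, and recovery with so many was not tested. Coding sequences were aligned with Biopython 1.88.

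The members and lists were chosen with earlier results of these data known. Named genes are all members, any listed gene called between genotypes, the 3 listed genes of largest chamber fold change called in all genotypes with 1 direction, and the 5 genes most like Myh7 and Myl2, and results for some genes that this rule or the lists select are not reported here. Listed genes and markers given with values for any other reason were chosen after their values were seen.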

Additional observations from a re-analysis of the deposited data

Results flagged for a closer look

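A library was marked where its gap to the nearest of the other 5 exceeded Dixon's 95% critical value for 6 samples as a share of the group's range, which chance does in about 1 in 20 groups. Of 92 groups of 6 in which a member reached 1 CPM, 22 were marked, 9 of 60 in heart and 13 of 32 in brain. A group entered once its highest library reached 1 CPM, so many marked brain groups entered through the marked library itself. In Gnb5+/+ cerebellum and hippocampus the other 5 libraries held at most 0.310 CPM of Myh6, Myl2 and Myl3. The share marked in brain, and that of all groups, therefore cannot be set against 1 in 20. In the Gnb5+/- replicate 4 ventricles Myh6 was low at 16409 CPM, while Myl2 was high at 10697 and Myl3 at 5629, in the library whose long genes also lay low. The others in heart were Myh6 in Gnb5+/+ replicate 2 atria (20784, low), Myl2 (346) and Myh7b (5.14) in Gnb5+/- replicate 3 atria, Myh7b in Gnb5+/- replicate 3 ventricles (143) and in Gnb5+/+ replicate 4 ventricles (150), all high, and Myl3 in Gnb5-/- replicate 5 ventricles (2888, low).

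In brain, 9 of the 13 marks fell on mouse 8, Gnb5+/+ replicate 6. Its hippocampus held Myh6 at 134.5 CPM, Myl2 at 42.5, Mybpc3 at 28.0, Myl3 at 22 and Mylk3 at 5.33, where the highest Myh6 of the other 11 libraries was 0.697. Its cerebellum held Myh6 at 43.4, Myl2 at 11.3, Myl3 at 7.19 and Mylk3 at 1.24. Set against the ventricle of the same mouse, the hippocampal levels came to 0.591% for Myh6, 0.645% for Myl2, 0.613% for Myl3 and 0.696% for Mybpc3, beside 0.637% for Actc1 and 0.580% for Tnnt2, and the cerebellar levels to 0.191%, 0.172% and 0.200% for Myh6, Myl2 and Myl3. In its cortex Myh6 came to 0.00433%. Where this RNA came from was not tested. The other brain marks were Myh7b in Gnb5+/+ replicate 1 cerebellum (13.4), Myl2 (1.27) and Myl4 (80.0) in Gnb5-/- replicate 3 cortex and Myl4 in Gnb5-/- replicate 2 cerebellum (1.26).

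Brain served in no comparison of the members, and 8 signals there lay above 1 CPM in all 12 libraries of a region: Mybpc3 in cerebellum with a median of 173 CPM, Myh7 in hippocampus with 4.96 and in cortex with 10.7, Myh7b in cerebellum with 10.4, in hippocampus with 4.19 and in cortex with 6.72, Myl4 in cortex with 11.2 and Mylk3 in cortex with 3.75.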

How the results depend on the processing

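Of 1528 recomputed values, 1456 kept their direction and side of the threshold (counts within 1.5 times), 52 changed sign, 7 came past the threshold, 6 fell short of it and 7 moved, and the causes were not tested. The count of members called in Gnb5-/- and in Gnb5+/- atria was 0, and it was 1 (Myh7) with DESeq2 and with the replicate block, and 0 to 1 without single libraries. The replicate numbers shared between genotypes join different mice and did not pair them (r of same-numbered libraries -0.189 to 0.147, at most 1 of 6 best with its own number). With this replicate block Myh7 gave -0.82 (edgeR adjusted p = 0.0169) and -0.92 (0.032), 37, 3, 23 and 0 genes were called in place of 41, 2, 28 and 3, and Myl4 in Gnb5+/- ventricles gave -0.0413. The mouse as a block changed no chamber call of a member, and turned the Gnb5+/- interactions of Myl4 and Myl7 to 0.0939 and 0.0873. All-gene calls were 110, 7 and 63 with DESeq2 in Gnb5-/- atria, Gnb5+/- atria and Gnb5-/- ventricles, 20 in Gnb5-/- atria and 1 in Gnb5+/- ventricles with 2 genotypes only, 2 in Gnb5+/- ventricles with at least 10 counts in every library, and 9 (DESeq2) or 0 (mouse block) in place of 2 for the Gnb5-/- interaction.

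Changes of sign were as follows. Without the Myl2-rich atria, both Gnb5+/+ and picked by their Myl2, Myl3 gave 0.18 and Mylk3 0.019 in Gnb5-/-, and Myl2 0.15 and Mylk3 0.017 in Gnb5+/- atria. Mylk3 in Gnb5+/- atria gave 0.0103 with Myl2 and Myl3 and 0.0049 with Myl2 as covariate. With Sln as covariate Myl3, Myl7 and Mybphl gave 0.0018, 0.30 and 0.15 in Gnb5-/- ventricles. Myh6 between Gnb5+/+ chambers gave 0.0129 with at least 10 counts in every library, 0.0542 without Myl2-rich mice and 0.43 with library totals (0.48 in Gnb5+/- and 0.29 in Gnb5-/- mice).

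Without single libraries, Mylk3 ran from -0.0525 to 0.0288 in Gnb5-/- and from -0.0516 to 0.0297 in Gnb5+/- atria, Mybphl from -0.11 to 0.0097 in Gnb5-/- and Myl4 from -0.0983 to 0.0449 in Gnb5+/- atria, Myh7 from -0.19 to 0.0755, Myl2 from -0.0195 to 0.0603 and Myl3 from -0.0582 to 0.0226 in Gnb5-/- ventricles, Myh6 from -0.0703 to 0.0891, Myl3 from -0.13 to 0.10, Myl4 from -0.35 to 0.27 and Myl7 from -0.13 to 0.42 in Gnb5+/- ventricles, and Myh6 between Gnb5+/+ chambers from -0.10 to 0.0227. The Myh7 share of Gnb5+/- atria was 0.0145% with all exons joined, and the atrial light chain shares with this length are given above. The lowest counts behind a member were 15 for atrial Myh7b, 16 for ventricular Mybphl and 62 for atrial Myl2, and atrial Myh7 had at least 131.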
